A study of Bos taurus with 2 samples.

Results

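The globin genes encode heme proteins that bind oxygen. In vertebrates the alpha-like and the beta-like globins lie in separate clusters, and one chain of each kind is needed for hemoglobin, the oxygen carrier of red cells. Within a cluster the genes are used in turn through development: zeta globin (HBZ) is the alpha-like chain of early embryonic red cells and alpha globin (HBA) replaces it in fetal and adult life. Myoglobin (MB), cytoglobin (CYGB) and neuroglobin (NGB) stand outside these clusters and are known from muscle, many connective and other tissues, and nerve cells.

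Globin transcripts were read in total RNA of spermatozoa on 2 bovine oligonucleotide arrays of 1 colour (Cy3), after priming from the poly(A) tail. One array held sperm RNA of high-fertile bulls and the other sperm RNA of low-fertile bulls. Both groups were breeding bulls of an HF crossbred population, neither had a treatment in the labels, and the number and age of the bulls behind each array are not given in the sources used here. With 1 array per group no difference has a replicate check and no p-value is given, so each difference describes these 2 arrays.

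The globin genes were taken as the probes whose gene name in the scanner tables was HBZ, HBA, HBA1, HBB, HBG, HBM, HBQ1, MB, CYGB or NGB. Of these 10 names 9 had a probe, and together they had 18 probes in 19 spots, of 51280 probes in all. No probe carried the name HBA1, and the HBA probe lists 2 alpha-globin transcripts, so the alpha genes are read together. The names were proposed with results of these arrays in view, and their values are therefore given as a description.

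On each array a minority of the spots (33.2% and 32.9%) were called well above background by the scanner software, and no spot was saturated. Among signals called well above background, the dimmest was 22.6 in high-fertile and 30.3 in low-fertile bulls. These values are not cutoffs, because some brighter spots were not called, such as HBB at 23.5 in high-fertile bulls. Negative-control spots had median signals of 4.89 and 6.67. Signals below are processed scanner intensities before scaling, the high-fertile array first. Differences are log2 values, high-fertile minus low-fertile, after each array was divided by its own 75th percentile signal, and a gene is called apart at an absolute value of 1 or more, which is 2-fold. Of 19 marker names for sperm and spermatids, 13 were measured on both arrays, among them ODF1, ACR and PRM1, while PRM2, AKAP4 and SMCP were not well above background on either. In bulk RNA, fewer cells of a type and less RNA per cell cannot be told apart.

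The probes on which the results turn are shown by their sequence, because the zeta probes share bases and because several probes end at the 3′ side of a transcript. The stretches below hold 30 bases of each such probe, and capitals mark AATAAA, the usual polyadenylation signal, or in HBQ1 the related AGTAAA.
HBZ: cacgccttccccgagacgggccAATAAAcg
HBZ by RefSeq accession (XM_002683810): cgccttccccgagacgggccAATAAAcgaa
zeta-like (XM_580707): agtgtttcatagggacccccAATAAAtgga
HBA: ctctcacctcctgatctttgAATAAAgtct
HBM from base 452: ggtctaggtctgcgaaattcAATAAAcagg
HBQ1 from base 431: gcgggggtctccagtgtttgAGTAAAgtcc

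The motifs were searched on the strand the probes are listed in. AATAAA was in 8.35% and AGTAAA in 1.95% of all 51280 probes. The HBZ probe and the XM_002683810 probe have 50 of their 60 bases in common, in 1 run that starts at base 11 of the HBZ probe, so they are close to repeats of one measurement. The following probes lie nearer the start of their transcripts and are shown whole: the only HBB probe, the measured NGB probe, the brightest HBG and HBQ1 probes and the dim HBM probe.
HBB from base 58: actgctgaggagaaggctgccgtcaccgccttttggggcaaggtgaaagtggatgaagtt
HBG from base 276: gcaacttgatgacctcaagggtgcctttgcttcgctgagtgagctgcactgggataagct
HBM from base 130: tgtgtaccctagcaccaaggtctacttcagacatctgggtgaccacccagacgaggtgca
HBQ1 from base 104: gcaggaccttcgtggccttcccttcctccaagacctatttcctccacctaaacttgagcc
NGB from base 290: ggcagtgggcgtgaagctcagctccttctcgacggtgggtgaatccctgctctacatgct

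Of the 18 globin probes 11 (61.1%) passed on both arrays, against 27.6% of all probes. The other 7 passed on neither array, and none on one array only, against 7.99% of all probes. The 11 probes stood for 7 of the 9 names with a probe, against 36.4% of all gene names: HBZ, HBA, HBM, HBQ1, HBG, MB and NGB. HBB and CYGB were not measured. HBZ and NGB were at least 2-fold higher in the high-fertile array, 2 of 7 names, against 1.88% of all 11620 measured genes. No globin name was lower by that much, against 2.44%, and 4.33% of all measured genes were 2-fold apart in either direction. The choice of the names had these values in view, so nothing is read from that share. The median difference of the 7 names was 0.17, and that of all measured genes was -0.0003.

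**Figure D1:**
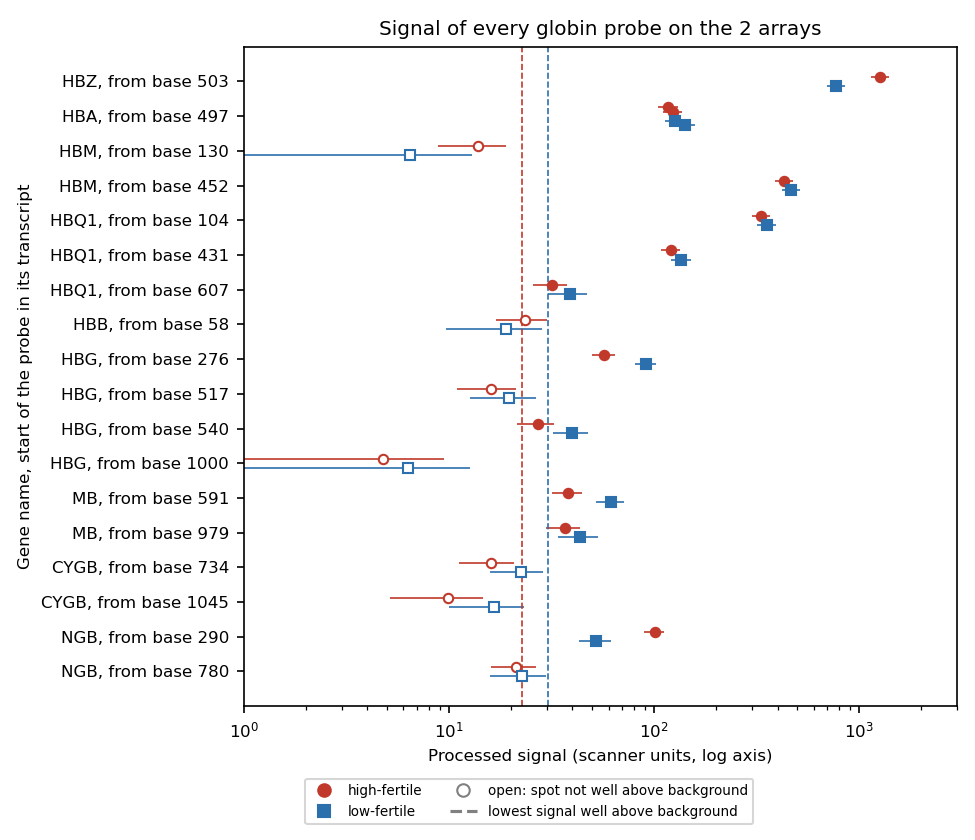
Processed signal of each of the 18 globin probes on a log axis, 1 point per spot and array, with the scanner software's error of the spot as a bar (bars that pass below 1 end at the axis) and dashed lines at the lowest signal well above background on each array. Before scaling, HBZ and NGB from base 290 are higher on the high-fertile array, the other measured probes lie higher on the low-fertile array, by an unscaled ratio from 0.615 (MB from base 591) upwards, and HBB and CYGB have only open symbols.

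HBZ, the embryonic alpha-like chain, had 1 probe, which starts at base 503 of its transcript and maps to chr25:652691-652750 on build Btau_3.1. Its signal was 1265 in high-fertile and 775 in low-fertile bulls, which is 56.0 and 25.5 times the lowest signal well above background. The high-fertile array was thus the brighter even before scaling, at a ratio of 1.63. After scaling the difference was 1.03, or 2.05-fold, with a scanner error of 0.20 that covers the spots and not the bulls. Across the array, 202 of 11620 measured genes (1.74%) had a difference at least as large. Among the 829 probes within 1 log2 unit of the HBZ level, 4.34% were at least 2-fold higher in the high-fertile array.

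A second probe gave the same reading in 2 further spots. It is listed under the accession XM_002683810, which RefSeq names HBZ, and it was picked out with the values in view. Its spots had signals of 1461 and 1697 in high-fertile and of 771.3 and 1038 in low-fertile bulls. The differences were 1.25 and 1.04, and over the 3 spots of the 2 overlapping probes the mean was 1.11 ± 0.12 (SD, n = 3 spots of 1 array pair). Between the 2 spots of a probe at the HBZ level, the difference had an SD of 0.16 over 218 probes. Another probe, listed under XM_580707 and described in the tables as zeta-like, was dimmer, with signals of 67.1 and 77.8 against 60.8 and 49.0, and its differences were 0.47 and 0.99. All 5 zeta spots were higher on the high-fertile array, and 3 of them by at least 2-fold.

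The size of the HBZ difference lay at the threshold. HBZ has 1 bright probe, so 5 of the 17 alternative ways of processing return the same value by construction. Under the other 12 it was above 0 in all and at least 1 in 5. Some of these 5 altered only the constant by which an array is scaled. The rest averaged in or substituted the XM_002683810 probe, picked with its values in view. None of the 5 thus tested the HBZ probe by a method that reshapes the signals. The HBZ difference came to 0.82 with normexp background correction, 0.83 with quantile normalization and 0.80 with a loess on signal. It was 0.44 with scaling on spike-in probes, which moved the median of all genes to -0.60. In 3 more alternatives it lay just under the threshold, at 0.92 to 0.995.

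HBA, the alpha chain of adult hemoglobin, was measured by 1 probe from base 497, at chr25:673407-673466. Its 2 spots had signals of 123.6 and 117.5 in high-fertile and 127.1 and 142.4 in low-fertile bulls. The scaled difference was 0.17, with 0.29 and 0.05 in the single spots and a mean scanner error of 0.22 per spot. The HBA probe was thus above background in all 4 readings. Of its 2 spots, 1 differed by more than its scanner error and 1 by less.

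HBM (mu globin) and HBQ1 (theta globin), alpha-like genes whose proteins are little known, lie in the same cluster. The HBM probe from base 452, at chr25:668157-668216, had signals of 432.5 and 467.2, 19.1 and 15.4 times the lowest signal well above background, and a difference of 0.22 with a scanner error of 0.21. The other HBM probe, from base 130 at chr25:667723-667782, had signals of 13.9 and 6.49 and was well above background on neither array. The 2 HBM probes therefore differed in detection, and the gene's difference rests on the one nearer the 3′ end.

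HBQ1 had 3 probes, all measured on both arrays. Its probe from base 104 had signals of 333.7 and 355.0. The mapped span of this probe, chr25:675725-675921, covers 197 bases for 60 of probe, so its bases are not contiguous on the genome. That from base 431, at chr25:676286-676345, had 121.0 and 136.0. The last, from base 607 at chr25:676533-676592, had 31.8 and 38.7, near the lowest measured signals. Their differences were 0.24, 0.16 and 0.04, with a mean of 0.15 ± 0.10 (SD, n = 3 probes).

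The 5 measured alpha-like probes other than zeta thus ranged from 0.04 to 0.24, all above 0 and all below HBZ. The HBZ difference exceeded that of HBA by 0.87, of HBM by 0.82 and of HBQ1 by 0.89, and these gaps do not depend on the constant by which an array is scaled. Under the 17 alternatives the gap to HBA was 0.62 to 0.97, to HBQ1 0.67 to 0.996 and to HBM 0.21 to 0.93, the lowest with the dim HBM probe counted in. With spike-in scaling the differences of HBA, HBM and HBQ1 turned to -0.43, -0.38 and -0.45, while HBZ stayed above 0.

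**Figure D2:**
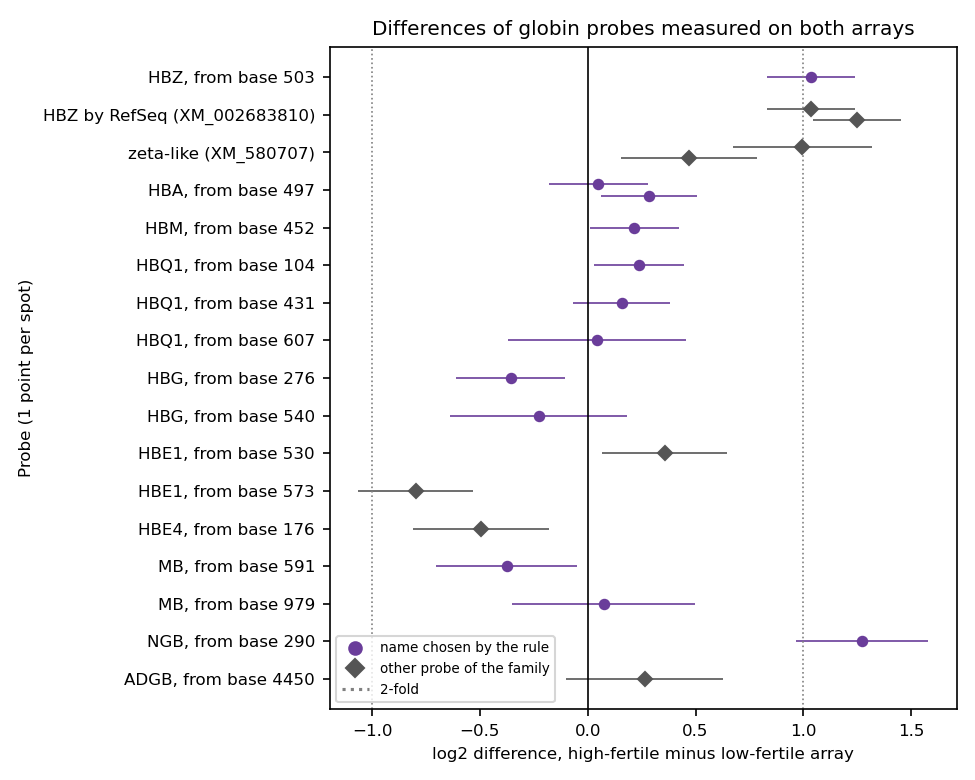
Log2 difference, high-fertile minus low-fertile, of every globin probe measured on both arrays, 1 point per spot with the scanner error as a bar, circles for the 9 names with probes and diamonds for other globin probes, and dotted lines at 2-fold. The HBZ and XM_002683810 spots lie from 1.03 to 1.25, the zeta-like XM_580707 spots at 0.47 and 0.99, and NGB at 1.27. The HBA, HBM and HBQ1 spots lie between 0.04 and 0.29 and both HBG probes below 0.

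The measured alpha-like probes lie in 1 cluster on chromosome 25, with HBM 15.5 kb, HBA 20.7 kb and the HBQ1 probes 23.0 to 23.8 kb from the HBZ probe. Within 100 kb of the globin probes, 12 of 28 other probes were measured on both arrays, against 27.6% of all probes. These 12 had a median difference of 0.23, and 1 of them was at least 2-fold apart, against 4.33% of all measured genes. That probe belongs to PDIA2, a disulfide isomerase of the endoplasmic reticulum, at the far end of the window, with signals of 72.8 and 37.8 and a difference of 1.27. It fell below 2-fold with normexp (0.60), with spike-in scaling (0.67) and with the second PDIA2 probe, which was not measured on either array, counted in (0.33). The probe nearest to HBZ, for the clone DN524146 on the opposite strand 1.07 kb before it, was lower in the high-fertile array, with signals of 35.9 and 69.0 and a difference of -0.61. NPRL3, whose introns hold distal enhancers of the alpha cluster in human and mouse, differed by -0.16. The measured probes closest to HBZ on either side thus had smaller or opposite differences.

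**Figure D3:**
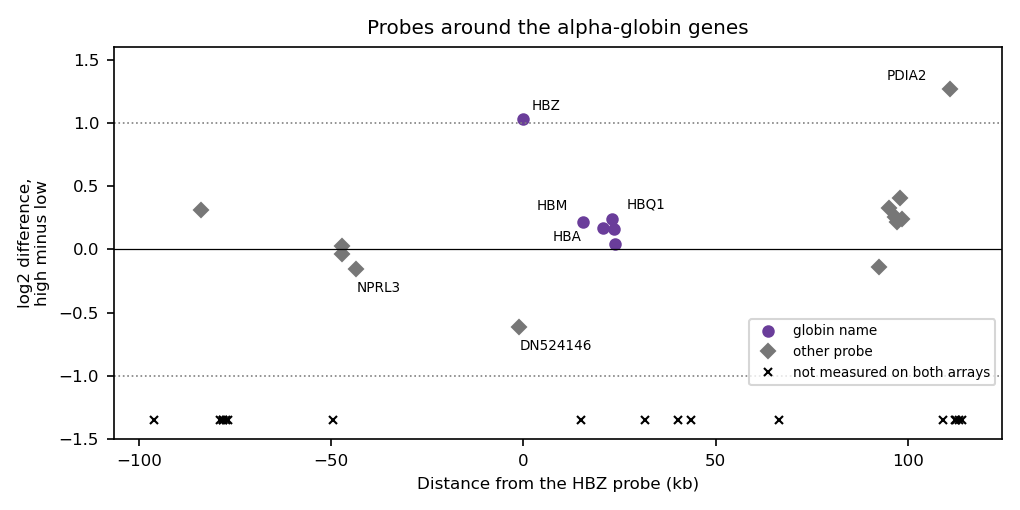
Log2 difference, high-fertile minus low-fertile, of the probes around the alpha-globin genes against the distance from the HBZ probe in kb, with circles for globin names, diamonds for other probes, crosses at the bottom for probes not measured on both arrays and dotted lines at 2-fold. HBZ stands at 1.03, the HBM, HBA and HBQ1 probes lie between 0.04 and 0.24, and DN524146 beside HBZ lies at -0.61.

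The beta-like chains pair with the alpha-like ones in hemoglobin. HBB, the adult beta chain, had 1 probe from base 58, at chr15:47825720-47825779, with signals of 23.5 and 19.0. It was well above background on neither array, so no difference is given. Beta-globin clones listed as NP10012386 and TC453856, picked out by their descriptions, had signals of 10.9 and 11.0 in high-fertile and 21.3 and 21.7 in low-fertile bulls, again on neither array well above background. The clone probes map to chr2:74350765-74350824 and chr15:47864624-47864683, the latter 38.9 kb from the HBB probe. They are therefore not shown to read HBB itself. HBB was thus not measured by its 1 probe, while the HBA probe was well above background in both its spots. Probes differ in how well they bind, so the 2 chains' amounts are not compared.

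HBG, the fetal beta-like chain, had 4 probes and 2 were measured. The brighter, from base 276 at chr15:47886299-47886358, had signals of 57.1 and 91.6 and a difference of -0.36 with a scanner error of 0.25. The dimmer, from base 540 at chr15:47887142-47887200, had 27.0 and 39.7 and a difference of -0.23 with an error of 0.41. The mean was -0.29 ± 0.09 (SD, n = 2 probes), less than 2-fold and on the low-fertile side. The probe from base 517, which has a run of 26 bases in common with the one from base 540, had 16.1 and 19.6, and a probe from base 1000 had 4.75 and 6.33, so both were well above background on neither array. The HBZ difference exceeded that of HBG by 1.33.

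The embryonic beta-like epsilon chains were not among the names and were looked at because they are the partners of zeta globin. The HBE1 probe from base 573 had signals of 47.0 and 102.4 and a difference of -0.80. A second HBE1 probe, made from a clone and mapped to the opposite strand, had 61.1 and 59.9 and a difference of 0.36, so the 2 probes differed in direction. HBE4 had 35.1 and 62.1 and a difference of -0.49. HBE2 was well above background in 1 of its 2 spots on each array, and its probe has a run of 27 bases in common with HBE4's. Of all 14 beta-like probes 5 were measured on both arrays, 4 of them lower in the high-fertile array and 1 higher, from -0.80 to 0.36. None of these 5 reached 2-fold in either direction, against 4.33% of all measured genes.

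NGB, the globin of nerve cells, was the other name that stood apart. Its probe from base 290 maps over a span longer than the probe on chromosome 10 (chr10:91107934-91109365, minus strand, 1432 bases). The signals were 100.9 and 52.4, which is 4.47 and 1.73 times the lowest signal well above background. The difference was 1.27, or 2.41-fold, with a scanner error of 0.31, and 79 of all measured genes had one at least as large. Among probes within 1 log2 unit of its level, 1.4% were at least 2-fold higher in the high-fertile array. The second NGB probe, from base 780 at chr10:91107313-91107372, had signals of 21.3 and 22.7 and passed on neither array.

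NGB thus rests on 1 spot of 1 probe, and 2 spots of a probe at that level differed with an SD of 0.31 over 1971 probes. The only neighbouring spot measured on both arrays had a difference of 0.95, and the block of the array around it had a median of 0.15. The difference was above 0 under the 10 alternatives that altered its value and fell below 2-fold under 3: 0.64 with normexp, 0.68 with spike-in scaling and 0.75 with the dim probe counted in. Of 6 marker names for nerve cells 5 were measured, against 36.4% of all gene names, with differences from -0.36 to 0.87. Of the 5, 3 were above 0 and 2 below, with a median of 0.04. The summed brightest signals of the markers were 1136 and 1036, a scaled log2 difference of 0.46. Most of each sum came from RBFOX3, with 811.9 and 631.7. The part of the nerve-cell markers in the NGB value was not tested.

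MB, the oxygen store of muscle, had 2 probes on the minus strand of chromosome 5. That from base 591, at chr5:79359665-79359724, had signals of 38.1 and 62.0 and a difference of -0.38. The one from base 979, at chr5:79359277-79359336, had 36.7 and 43.7 and a difference of 0.07. Their mean was -0.15 ± 0.32 (SD, n = 2 probes), within the spread of the probes. Both probes of CYGB were dim, with 15.98 and 22.4 from base 734 (chr19:56892053-56892112) and 9.88 and 16.6 from base 1045 (chr19:56892364-56892423). CYGB was thus not measured on either array. Androglobin (ADGB), a large globin of testis and ciliated cells that was not among the names, had signals of 36.7 and 38.3 and a difference of 0.26.

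**Figure D4:**
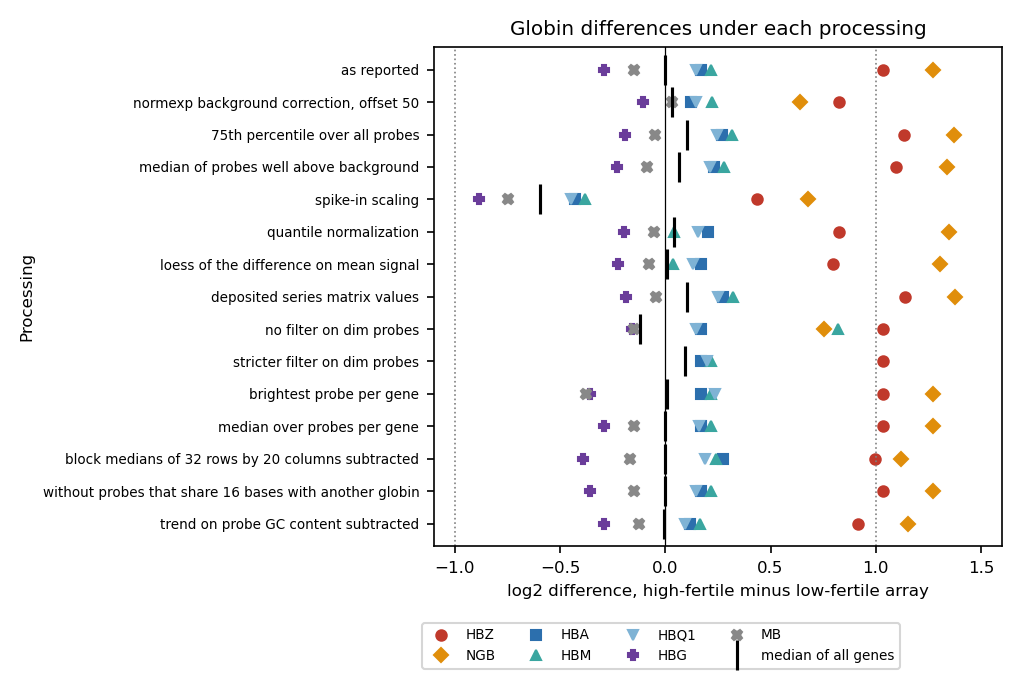
Log2 difference, high-fertile minus low-fertile, of the 7 measured globin names (coloured symbols) and the median of all measured genes (black bars) under the processing as reported and each alternative, with dotted lines at 2-fold. HBZ and NGB lie to the right of the other names throughout, except that NGB was not measured under the stricter filter and HBM lies at 0.82 with no filter, and spike-in scaling puts HBZ at 0.44, NGB at 0.68 and the other names below 0.

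Markers of red cells, the main source of hemoglobin RNA, were read beside the globins. Of 12 erythroid names 3 were measured on both arrays, 1 on one array and 8 on neither, against 36.4% of all gene names measured on both. The measured ones included HBA itself and AHSP, the chaperone of free alpha globin, with signals of 100.5 and 123.8 and a difference of 0.03. ALAS2, the red-cell enzyme that starts heme synthesis, had signals of 4.70 and 6.46, and SLC4A1, the anion exchanger, 7.68 and 9.85. The ALAS2 signals were just under the median of the negative controls on each array. The summed brightest signal of the 12 names was 427.0 in high-fertile and 493.0 in low-fertile bulls before scaling. Scaled as HBZ was, the sums were 2.87 and 2.65, a log2 difference of 0.12 towards the high-fertile array.

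A longer list of 38 red-cell genes had 33 names with a probe, 10 measured on both arrays, against 36.4% of all gene names. None of these 10 was 2-fold apart, against 4.33% of all measured genes, and their median was 0.10. The ends of the list were DMTN, which bundles actin in the red-cell membrane, at 0.75 and PRDX2, a peroxidase abundant in red cells, at -0.48. Of 15 leukocyte markers 10 were measured, against the same 36.4%. None of the measured markers was 2-fold apart, against the same 4.33%, with 6 above 0, 4 below 0 and a median of 0.08. They ran from PTPRC, the pan-leukocyte phosphatase, at -0.51 to the T-cell co-receptor CD4 at 0.62. Their summed brightest signal, most of it from 1 LYZ and 1 PTPRC probe, was 16704 against 26964, a scaled log2 difference of -0.36. What part blood cells had in the globin signals was not tested beyond these values.

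Of 26 regulators of globin genes 7 were measured on both arrays and 4 on one, against 36.4% of all gene names measured on both. None of the 7 was 2-fold apart, against 4.33% of all measured genes, and their median was 0.26. The 4 on one array included MAFG, with signals of 56.3 and 29.3, and NFE2, with 14.3 and 41.1, and no difference is given for them. TAL1, a transcription factor of early blood cells, was at 0.44 and its partner LDB1 at 0.47, with the signals of TAL1 at 44.0 and 40.7. LMO2, which joins them, was at -0.52 with an SD of 0.84 over its 2 measured probes, and CHD4, a chromatin remodeler that silences fetal globin, was at -0.16. KLF1, which switches on adult beta globin, had signals of 9.78 and 7.88 and was well above background on neither array. With spike-in scaling TAL1 and LDB1 came to -0.16 and -0.13.

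Heme synthesis begins with glycine in mitochondria. Of 15 names of this pathway 8 were measured, against 36.4% of all gene names. Of these 8, 2 were lower by 2-fold or more in high-fertile bulls, against 2.44% of all measured genes. SLC25A38, the carrier that brings glycine into mitochondria, had signals of 60.3 and 277.9 and a difference of -1.88. ABCB10, a transporter of the inner mitochondrial membrane, had 53.5 and 138.5 and a difference of -1.05. Each rests on 1 measured probe. Among the alternatives that altered its value, SLC25A38 stayed at least 2-fold apart in 10 of 10 and ABCB10 in 3 of 9, with -0.59 under normexp. The enzymes were closer together: PPOX was at -0.56, ALAD at 0.31 and UROD at 0.26, and the median of the 8 names was -0.06. Heme breakdown, heme transport and iron storage had 15 of 23 names measured, against the same 36.4%. None of the 15 was 2-fold apart, against 4.33% of all measured genes. The lowest were NCOA4, the receptor that sends ferritin to autophagy, at -0.69 and the iron importer SLC11A2 at -0.66 (SD 0.84 over probes). The highest were SLC48A1, a heme transporter, at 0.27 (SD 0.79) and the hemoglobin scavenger receptor CD163 at 0.33.

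Hypoxia genes were the last list, since oxygen supply sets red-cell output. Of 14 names 7 were measured, against 36.4% of all gene names. Of these 7, 2 were higher by 2-fold or more in high-fertile bulls, against 1.88% of all measured genes. EGLN1, the oxygen sensor that marks hypoxia-inducible factor for decay, had signals of 855.4 and 484.3 and a difference of 1.15. VEGFA, a growth factor for blood vessels, had 127.5 and 70.9 and a difference of 1.17. Each of these rests on 1 measured probe. EGLN1 fell below 2-fold under spike-in scaling, quantile and loess, and VEGFA under normexp, spike-in scaling and with dim probes counted in. EPO, the hormone that drives red-cell formation, was at 0.50 with signals of 35.3 and 31.4, and BNIP3 and EGLN3 were the lowest of the measured names at -0.06 and -0.07.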

How the data were processed

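The deposited scanner tables give the linear 1-colour intensity of every spot, per the file headers made with Agilent Feature Extraction 11.5.1.1, with background subtracted and the spatial trend removed within each array, and with probe positions on Btau_3.1. Feature Extraction is also named in the submitters' processing notes, and any normalization between arrays is not described in words in the sources used here. Log2 values in the deposited series matrix equalled the log2 processed signals plus a constant per array (-5.12 and -5.55, within 0.01 for 98.6% of probes on each). Their column medians were -1.43 and -1.37 and their 75th percentiles -0.0015 and -0.0018. The matrix columns were thus shifted to about their 75th percentile over all probes.

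Groups followed the fertility entry of the labels, with 1 array each, and the array number limits the precision. Control and outlier spots were left out and spots of a probe averaged. Each array's 75th percentile over probes well above background on both arrays was subtracted on the log2 scale (148.6 and 186.3 in signal units). A probe counted as measured where all its spots were well above background on both arrays, and the measured probes of a gene were averaged. Probes were named by RefSeq accession (28110, ARS-UCD2.0, names only), symbol (6484) or older symbol (153), and 16533 kept the file's name; member probes were taken by the file's name.

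The members and gene lists were chosen with earlier results of these data known. All member probes are reported, and of each list the 2 largest differences either way plus defining markers; other names were picked after their values were seen. Some list members are not reported here. The normexp alternative (offset 50) used limma 3.58.1 in R 4.3.3. Quantile and loess alternatives were computed in Python 3.11.15, the loess with statsmodels 0.14.6. The code was checked on simulated data.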

Additional observations from a re-analysis of the deposited data

How the results depend on the processing

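The HBZ difference of 1.03 moved by more than 0.28, the SD between spots over all probes, with spike-in scaling (0.44), and by more than 0.16, the SD at its own level, also with normexp (0.82), quantile normalization (0.83) and loess (0.80). Spike-in scaling rests on 7 spike-in probes (0.27 ± 0.09 before scaling, SD) and put the median of the measured globin names at -0.43, that of all genes at -0.60 and the share of higher among called genes at 1.82%, against 43.5% as reported. This share was 59.3% with the 75th percentile over all probes, 59.7% with the matrix values, 60.3% with normexp, 73.3% with the stricter filter and 31.0% with no filter. The 2 globin names at least 2-fold apart became 0 with normexp, with spike-in scaling and at a 4-fold threshold. They became 1 with quantile normalization, loess, no filter, the stricter filter, block medians subtracted (HBZ at 0.995) and, added after seeing the data, the GC trend subtracted (HBZ at 0.92) and HBZ averaged over all 3 zeta probes (0.97). Of the 18 globin probes 5, against 9.44% of all probes, reached at least 4 times the lowest signal well above background, where 11 were well above background. Of the single-gene differences over all alternatives, 401 stayed within 0.28 (some by construction, where a gene has 1 measured probe), 64 moved by more, and none of those called at 2-fold changed sign. The causes were not tested. No paired analysis was possible because each group has 1 array and the labels give no replicate numbers. Signals near the lowest well above background, as for HBG, MB and HBQ1 from base 607, carry scanner errors of 0.25 to 0.42. Smaller differences there lie within the error of the spots. This error does not cover the bulls, so no limit of detection between the groups is known.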

Other observations

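Of the 13 sperm markers measured, 1 was at least 2-fold higher in the high-fertile array, against 1.88% of all measured genes. Likewise 1 was at least 2-fold lower, against 2.44%. Nuclear proteins among the markers lay on both sides of 0. TNP2, which replaces histones in spermatids before the protamines, had signals of 71.1 and 38.2 and a difference of 1.22, while the protamine PRM1 had 81.6 and 218.7 and was 2.14-fold lower over 2 probes. TNP2 fell below 2-fold with normexp and with spike-in scaling, and PRM1 with normexp, with the matrix values and with scaling over all probes. The others measured lay closer to 0, with the spermatid histone H1FNT at 0.25, TNP1 at -0.03 and PRM3 at -0.38. These names were picked from the marker list after their values were seen.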
